A study of Neurospora crassa with 4 samples.

Results

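In *Neurospora crassa*, 155 genes have been listed as genes whose predominant poly(A) peak sits elsewhere along the transcript once the CFIm complex is lost, and their expression is described here. They were taken from the study's own list of genes with altered alternative polyadenylation (APA), which was built from poly(A) peaks called in the same 4 libraries. Genes that went from several peaks to 1 (collapsed, 193 genes) and from 1 peak to several (expanded, 123 genes) were set aside, and the remaining 155 of the 471 altered genes are the members. The expression table holds 7793 genes, and all 155 members are in it. The choice used the contrast between mutant and control, so counts and medians over the members are a description, and only the value of a single gene carries a test. Where each peak lies in the mutant, and so the direction and distance of each shift, was not analysed here, and a table of 1 value per gene cannot show whether a peak moved.

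The comparison is of 4 cultures (N = 2 biological replicates per genotype), each library being 3′ End Sequencing of polyadenylated RNA from mycelium and conidia harvested together. The control strain is mating type A and carries a luciferase reporter driven by the clock box at the *csr-1* locus, with the *bar*R marker. The ΔCFIm strain carries the same reporter and marker, and both *cpsf5* (NCU09014) and *cpsf6* (NCU02152) are replaced by *hph*R; its mating type is not given in the labels used here. Each genotype is represented by 1 strain, and all cultures grew for 72 hours on cellophane-covered plates (25°C, constant light), with glucose at 0.25% and arginine at 0.17%. Strain background and genotype therefore cannot be told apart.

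As background, an mRNA 3′ end is made when a multi-subunit machine cuts the nascent transcript and adds a poly(A) tail. CFIm, a complex of CPSF5 and CPSF6, binds UGUA motifs upstream of the cut and helps recruit the rest of the machine, so that in animal cells its loss changes which of several possible sites is used. A moved site lengthens or shortens the 3′ UTR, the stretch after the stop codon that holds binding sites for proteins controlling mRNA stability, location and translation, and usually leaves the protein unchanged. The abundance of such a transcript may or may not follow, and that is what the expression values of the members describe.

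Between 5572762 and 6053869 reads were counted on genes in each library. The deposited values are read counts scaled to equal library totals, called normalized counts here, and 1 read is worth between 0.967 and 1.05 of them. Each pair of values below gives replicate 1 first and replicate 2 second. Both targeted genes were far lower in ΔCFIm: *cpsf5* had 214 and 192 normalized counts in the controls and 2.96 and 0 in ΔCFIm, and *cpsf6* had 141 and 160 against 25.7 and 26.0. In ΔCFIm *cpsf5* stood at 0.729% of its control mean and *cpsf6* at 17.2%. The origin of the 26 reads left on *cpsf6* in each ΔCFIm library was not tested. The *csr-1* gene had 0 reads in all 4 libraries, and *matA-1*, a mating-type A gene, had 152 and 160 against 0 and 0. Of a list of marker genes of conidia, the asexual spores, 5 were found in the table (*eas*, *con-6*, *con-8*, *con-10* and *ccg-1*), and none of the 5 passed the test. The farthest from 0 was *con-8*, at −0.64 on the log2 scale (adjusted p = 0.176, limma). It had 64873 and 75140 normalized counts against 34801 and 57359, so both ΔCFIm values lay below both controls. *con-10* had 89366 and 69319 against 52848 and 103957, which overlap. *ccg-1*, *con-6* and *eas* were at 0.12, 0.08 and 0.01 on the log2 scale. The part that spores play in the members' values was not tested. In bulk cultures, fewer cells of a type and less RNA per cell cannot be told apart.

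The members' expression differed little from control in most cases, as it did for genes in general. Their log2 fold changes (ΔCFIm minus control, on log2 of normalized count plus 1) ran from −1.21 to 3.58 with a median of −0.05, and the median over all 6949 tested genes was −0.01. Within 1.5-fold of control were 134 members (86.5%, against 84.4% of all tested genes), and 6 differed by over 2-fold (3.87%, against 5.12%). The test was limma, adjusted by Benjamini-Hochberg over all tested genes at a threshold of 0.05, and it called 16 members (10.3%), 4 higher and 12 lower in ΔCFIm. Over all tested genes 8.0% were called (556 of 6949), 4.62% higher and 3.38% lower. In all 16 called members the 2 ΔCFIm libraries lay outside the range of the controls. Such non-overlap was seen in 92 of the 155 members (59.4%), 41 above and 51 below the controls, and in 52.4% of all tested genes (25.9% above and 26.5% below). Because the rule used this contrast, nothing is read from these shares.

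**Figure D1:**
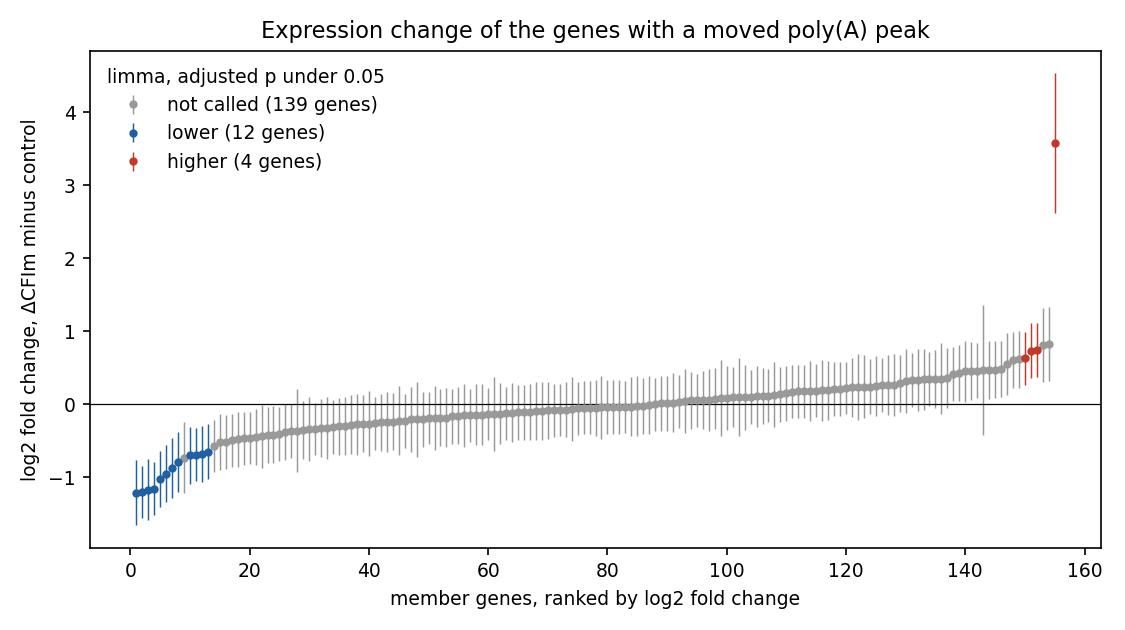
Log2 fold change (ΔCFIm minus control, y axis) of each of the 155 members, ranked from lowest to highest (x axis), with the 95% interval from limma as bars (N = 2 libraries per genotype). The 12 genes called lower reach −1.21, the 4 called higher reach 3.58 (NCU00607), and the 139 grey genes in between did not pass the adjusted threshold.

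The members were well expressed, as were the other genes with several peaks. A member needed poly(A) peaks called from reads of the same libraries, so a high level is partly built into the choice. Median levels were 434 normalized counts for collapsed genes, 477 for expanded genes and 580 for unaltered genes with several peaks. Reads from 3′ End Sequencing count transcript ends and do not scale with gene length, so levels are compared between genes on the normalized count scale. The median of the members' mean levels was 522 normalized counts, with a range of 146 to 12442, against a median of 246 over all tested genes. Above that overall median were 130 members (83.9%). Together they accounted for 2.54% and 2.58% of control reads and for 2.64% and 2.53% of ΔCFIm reads. These shares overlap between genotypes. All 155 passed the filter on low values, and the lowest value of any member in any library was 92.8 normalized counts, or 89 reads. Median gene length was 2805 bases for the members and 2348 bases for the genes of the whole expression table, tested or not.

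Of the 5 most abundant members, 3 serve basic functions of every cell. NCU00413, annotated as 60S ribosomal protein L2 (III:3769771-3771556), had 12211 and 12803 normalized counts in the controls and 11564 and 13190 in ΔCFIm. *hH3*, which encodes histone H3, had 9581 and 9064 against 12040 and 10390, and *aac*, the mitochondrial carrier that exchanges ADP for ATP, had 8242 and 9899 against 11236 and 9437. The genotypes overlap for NCU00413 and *aac*, whereas both ΔCFIm values of *hH3* lie above both controls by a log2 fold change of 0.26 that did not pass the test (adjusted p = 0.446, limma). The remaining ones were *ccg-6* and *tca-7*, given further on.

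The member with the largest change was NCU00607, a gene for a hypothetical protein (I:7857817-7858572, plus strand), whose number of poly(A) peaks was the same in all 4 libraries. It had 304 and 92.8 normalized counts in the controls and 3024 and 1341 in ΔCFIm. Both mutant values lie far above both controls, and the replicates of a genotype differ widely, by 3.27-fold in the control and 2.26-fold in ΔCFIm. The ratio of the means was 11.0-fold, and the log2 fold change was 3.58 (SE 0.44, adjusted p = 0.000307, limma). Leaving out each library in turn gave log2 fold changes from 2.73 to 4.42. The call held under all 14 alternatives of processing.

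The other 3 called higher were each under 2-fold. NCU03425, annotated as threonine-2 in amino acid metabolism (II:761761-764565), had 908 and 924 normalized counts in the controls and 1397 and 1680 in ΔCFIm. NCU05136, annotated as the precursor of an enzyme that cuts polygalactosamine chains (VI:3604415-3607109), had 790 and 754 against 1412 and 1169. NCU01939, annotated as a nonsense-mediated mRNA decay protein, of the pathway that removes mRNAs with premature stop codons (I:1939316-1944145), had 551 and 597 against 848 and 930. All 3 were higher in both ΔCFIm libraries than in either control. Their log2 fold changes in limma were 0.74 (SE 0.17, adjusted p = 0.0183) for NCU03425, 0.73 (SE 0.17, adjusted p = 0.0199) for NCU05136 and 0.63 (SE 0.17, adjusted p = 0.0363) for NCU01939. Each of the 3 lost its call when either control library was left out or when limma was fitted without a trend, NCU01939 also without the filter on low values.

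Among the 12 members that fell, 5 did so by over 2-fold. NCU01477, for a hypothetical protein (V:4605706-4609263), had 591 and 424 normalized counts in the controls and 239 and 195 in ΔCFIm. NCU04597, annotated as mitogen-activated protein kinase MAF1 (V:1561132-1564619), had 938 and 974 against 410 and 419. *ro-11* (NCU08566, III:4884046-4888035), which is annotated as a nuclear distribution protein and belongs to the ropy genes needed to spread nuclei through the hyphae, had 275 and 336 against 140 and 129. In these 3 genes both mutant libraries were below both controls, and the spread between replicates was smallest for NCU04597. NCU10015, annotated as monooxygenase-7 (VII:1285293-1287942), had 1462 and 1646 against 719 and 675, and *gh76-7* (NCU03770, V:2359294-2361695), a glycosyl hydrolase of the Dfg5 family that works on glycoproteins of the cell wall, had 359 and 369 against 183 and 174. The genotypes were clearly apart in both.

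In limma the log2 fold changes of these 5 were −1.21 (SE 0.21, adjusted p = 0.00291) for NCU01477, −1.20 (SE 0.17, adjusted p = 0.000684) for NCU04597, −1.17 (SE 0.19, adjusted p = 0.00237) for *ro-11*, −1.15 (SE 0.17, adjusted p = 0.000915) for NCU10015 and −1.03 (SE 0.18, adjusted p = 0.00335) for *gh76-7*. As ratios of means, control exceeded ΔCFIm by 2.34-fold, 2.30-fold, 2.27-fold, 2.23-fold and 2.04-fold. All 5 calls held under each of the 14 alternatives.

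The other 7 fell by less than 2-fold. NCU00748, for a hypothetical protein (I:7331956-7334246), had 702 and 620 normalized counts in the controls and 376 and 309 in ΔCFIm (log2 fold change −0.95, adjusted p = 0.00581, limma), and its call also held under all 14 alternatives. NCU00838, annotated as quinate-6 (I:6996183-6997951), had 649 and 696 against 312 and 430 (−0.87, adjusted p = 0.0137). NCU04466, annotated as cyanamide hydratase, an enzyme that turns cyanamide into urea (IV:3262395-3264360), had 403 and 440 against 211 and 279 (−0.79, adjusted p = 0.0229). In all 3 the lower of the control values exceeded the higher of the mutant values. NCU00838 and NCU04466 lost the call without control replicate 2 or without a trend.

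NCU01804, of the nudix family of hydrolases that cleave nucleoside diphosphate compounds (II:2363917-2366684), had 412 and 369 normalized counts in the controls and 228 and 252 in ΔCFIm (log2 fold change −0.70, adjusted p = 0.0293, limma). NCU00444, annotated as transcription initiation factor-8 (III:3881590-3884539), had 536 and 531 against 329 and 332 (−0.69, adjusted p = 0.0244), the tightest replicates of the called members. NCU09222, for a hypothetical protein (I:5898045-5899471), had 821 and 698 against 505 and 443 (−0.68, adjusted p = 0.0320). NCU16757, one of the APA examples that the study displays, is annotated as subunit 1 of the H/ACA ribonucleoprotein complex, which guides pseudouridine formation in ribosomal RNA (IV:1401245-1403435), and it had 1120 and 1176 against 667 and 802 (−0.65, adjusted p = 0.0354). None of these 4 overlapped between genotypes, and each lost its call when either control library was left out or without a trend, NCU16757 also without ΔCFIm replicate 1. Without the filter on low values NCU01804, NCU09222 and NCU16757 were not called.

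**Figure D2:**
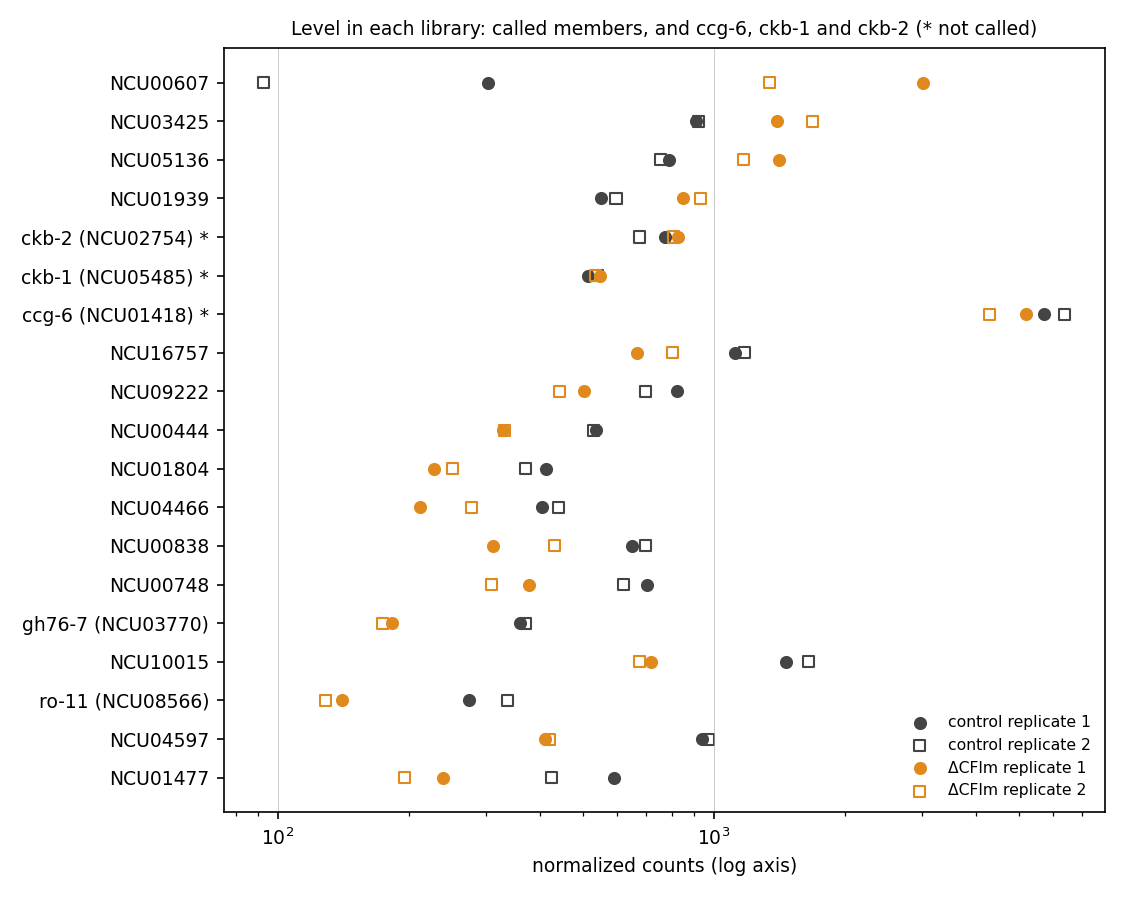
Normalized counts (x axis, log scale) in each of the 4 libraries for the 16 called members and for *ccg-6*, *ckb-1* and *ckb-2*, which were not called (rows, ordered by log2 fold change). Grey symbols are controls and orange symbols are ΔCFIm, with circles for replicate 1 and squares for replicate 2; NCU00607 spans 92.8 to 3024, and the genotypes overlap only for *ckb-1*.

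Overlapping annotations touch 20 of the 155 members, and among the 16 called they touch NCU10015, NCU00838 and NCU01804. The strand setting of the counting is not given in the sources used here, so the values of these 3 genes are uncertain to the extent that reads of an overlapping gene were counted with them.

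Several members lay just outside the threshold. NCU02729, of the transducin family, had 93.5 and 138 normalized counts in the controls and 231 and 176 in ΔCFIm (adjusted p = 0.0503, limma). NCU07887, the small subunit of ribonucleotide reductase, which makes the building blocks of DNA, had 983 and 1020 against 680 and 668 (adjusted p = 0.0514). NCU07874, annotated as the polyadenylated RNA-binding protein pub1, had 540 and 629 against 977 and 806 (adjusted p = 0.0568). Genotypes did not overlap in any of these 3, and the same holds for the called members. NCU07234 (log2 fold change 0.81, adjusted p = 0.0525, limma) and NCU09573 (0.61, adjusted p = 0.0567) were also just outside, and their library values are not given here. Without adjustment 42 of the 155 members (27.1%) had a p under 0.05, as had 22.5% of all tested genes, and 26 of the 42 were not called.

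Both regulatory (beta) subunits of casein kinase II, a kinase that phosphorylates the clock protein FRQ, are members. *ckb-1* (NCU05485, VI:1760710-1762755) had 514 and 541 normalized counts in the controls and 547 and 534 in ΔCFIm. *ckb-2* (NCU02754, I:3449940-3452077) had 771 and 676 against 828 and 807. The genotypes overlapped for *ckb-1*, and for *ckb-2* both mutant values were slightly above the controls. Neither passed the test: the log2 fold change was 0.04 for *ckb-1* (95% interval −0.33 to 0.40, adjusted p = 0.928, limma) and 0.18 for *ckb-2* (−0.19 to 0.54, adjusted p = 0.582).

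*ccg-6*, a clock-controlled gene whose transcript cycles over the day, is the other APA example that the study displays (NCU01418, V:4007434-4009736). It had 5725 and 6378 normalized counts in the controls and 5200 and 4278 in ΔCFIm. Both mutant values were lower, by −0.36 on the log2 scale (95% interval −0.75 to 0.04), which did not pass the test (adjusted p = 0.276, limma). The 9 members grouped under signalling, clock output and development had 0 calls and a median log2 fold change of 0.04. They include *rho-1*, a GTPase that controls the glucan wall (−0.02), *ve-1*, a velvet-family regulator of development (0.25), and *gsy-1*, glycogen synthase, the highest of the group at 0.26 (870 and 905 against 1163 and 974).

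By annotated role, 82 members were placed in 8 groups, and 73 were left without one, 42 of the 155 being hypothetical proteins. No group held more than 2 called genes. The share called ran from 0% to 18.2% by group, against 8.0% of all tested genes. RNA processing and translation (11 members) had 1 gene higher, NCU01939, and 1 lower, NCU16757, with a median of −0.02. The seryl-tRNA synthetase NCU01443, which charges tRNA with serine, was at −0.46 (adjusted p = 0.117, limma), and the ribosomal RNA methyltransferase NCU03669, named spb1, was at 0.55 (adjusted p = 0.113). Neither of these passed.

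Amino acid and nucleotide metabolism (12 members) had 1 gene higher, NCU03425, and a median of −0.04. NCU07887 was its lowest, at −0.57. *eth-1*, which makes S-adenosylmethionine, was at 0.02, *for*, serine hydroxymethyltransferase, at −0.03, and *mtr*, a permease for neutral amino acids, at −0.04. Transcription and chromatin (12 members) had 1 gene lower, NCU00444, with a median of −0.11 and 9 of the 12 below 0. Of the 155 members 88 were below 0, as were 3549 of the 6949 tested genes, and nothing is read from these counts. The highest of the 12 was *hH3*, and the histone deacetylase gene *nst-1* (0.06) and the pH regulator pacC (NCU00090, −0.10) stood near 0.

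Cell wall, secretion and membrane traffic (13 members) had 1 gene lower, *gh76-7*, and a median of −0.00. Chitin synthase *chs-1* had 1770 and 1708 normalized counts in the controls and 1867 and 1616 in ΔCFIm, and these overlap. NCU09220, named mon-1 for its part in vacuole fusion, was the highest, with 416 and 459 against 531 and 678 (0.46, adjusted p = 0.156, limma).

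No member was called in the other 3 groups. Mitochondria and energy (12 members) had a median of −0.04. In that group 2 dehydrogenase genes stood highest: *ace-4* of the pyruvate dehydrogenase complex, which feeds the tricarboxylic acid cycle, had 1015 and 1117 normalized counts against 1665 and 1332 (0.48, adjusted p = 0.119, limma), and *tca-7*, the E1 component of 2-oxoglutarate dehydrogenase within that cycle, had 4746 and 4691 against 6255 and 6709 (0.46, adjusted p = 0.133). NCU00502, subunit 4 of ATP synthase, stood lowest, with 1706 and 1753 against 1252 and 1262 (−0.46, adjusted p = 0.109). Genotypes did not overlap in these 3 genes, and none passed the test.

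Proteasome, ubiquitin and folding (9 members) had a median of 0.09. It holds 4 subunits of the cap that recognises and unfolds proteasome substrates: *rpn-8* at 0.47, *rpn-2* at 0.41, *rpt-1* at −0.06 and *rpn-3* at −0.08. The deubiquitinating enzyme NCU00480 was lowest, at −0.42 (401 and 422 against 333 and 283). Transporters (4 members) had a median of 0.32, and the chloride channel NCU00121 was at 0.47 (249 and 283 against 400 and 340), above the controls in both mutant libraries but not called (adjusted p = 0.142, limma). *tcu-1*, a copper transporter, was also at 0.47, but 1 library sets its value: it had 315 and 276 in the controls and 784 and 212 in ΔCFIm, so the genotypes overlap. The metal transporter NCU07879 was at −0.14 (270 and 270 against 282 and 213). *tcu-1* and NCU00607 are the 2 members in which replicates of 1 genotype differ by over 2-fold.

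**Figure D3:**
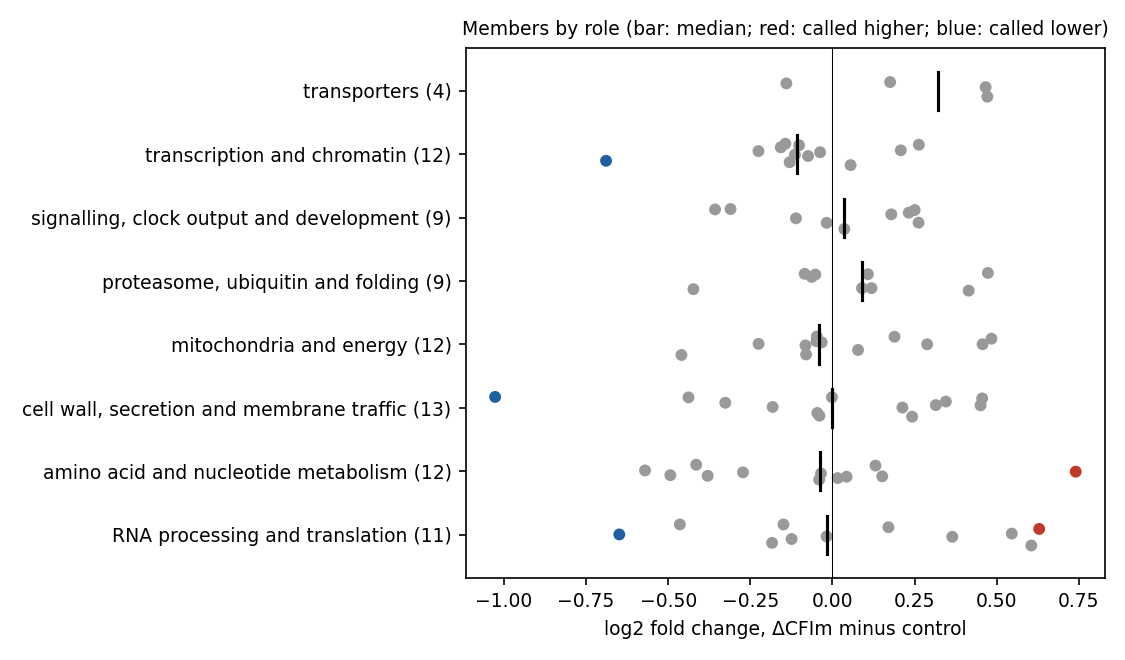
Log2 fold change (x axis, ΔCFIm minus control) of the 82 members with an annotated role, in 8 groups (rows, number of members in brackets). Each point is a gene, the black bar is the median of the group, red points were called higher and blue points lower by limma; no group has more than 2 called genes.

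Among the members without a role group, 2 were called higher (2.74%) and 9 lower (12.3%), with a median of −0.13. The 42 hypothetical proteins within the 155 had 1 higher (2.38%) and 3 lower (7.14%), with a median of −0.02. Of all tested genes 4.62% were called higher and 3.38% lower, and nothing is read from these shares.

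The members also differ in how many peaks they have. In 101 the number of peaks was the same in all 4 libraries, and 3 of these were called higher and 10 lower. Another 16 had fewer peaks in both ΔCFIm libraries than in both controls while keeping several, with 0 called, and 11 had more, with 1 called lower (NCU00748). In 27 the peak numbers overlapped between genotypes, with 1 called higher (NCU03425) and 1 lower (*ro-11*). The medians were −0.06, −0.05, −0.02 and 0.06, in that order. The shares called were 12.9% (2.97% higher and 9.90% lower), 0%, 9.09% and 7.41%. Of all tested genes 8.0% were called, 4.62% higher and 3.38% lower, and nothing is read from these shares.

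Along the genome the members lie on all 7 linkage groups, with 46 on I, 20 on II, 21 on III, 14 on IV, 25 on V, 11 on VI and 18 on VII. On the plus strand are 76 and on the minus strand 79, and 8 members were called on each strand (10.5% and 10.1%). Called members lie on every linkage group, from 1 on VI (9.09%) and on VII (5.56%) to 5 on I (10.9%). The highest share was 14.3%, on IV, and 8.0% of all tested genes were called.

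The members were set beside the other classes of APA. By limma 2.58% of the members were called higher and 7.74% lower, against 4.15% and 2.59% of collapsed genes, 4.88% and 3.25% of expanded genes, and 3.79% and 3.48% of the 976 genes with several peaks and no listed change. The median log2 fold change was −0.05 for the 155 members, −0.05 for collapsed genes, 0.04 for expanded genes and −0.03 for the unlisted genes with several peaks. The median size of the change, regardless of sign, was 0.24 for the members and also 0.24 for all tested genes, 0.23 for collapsed, 0.20 for expanded and 0.20 for unlisted genes with several peaks. The lists were chosen on the same libraries, so these are descriptions, and no difference between them was tested. Median levels were 522 normalized counts for members, 434 for collapsed, 477 for expanded and 580 for unlisted genes with several peaks.

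**Figure D4:**
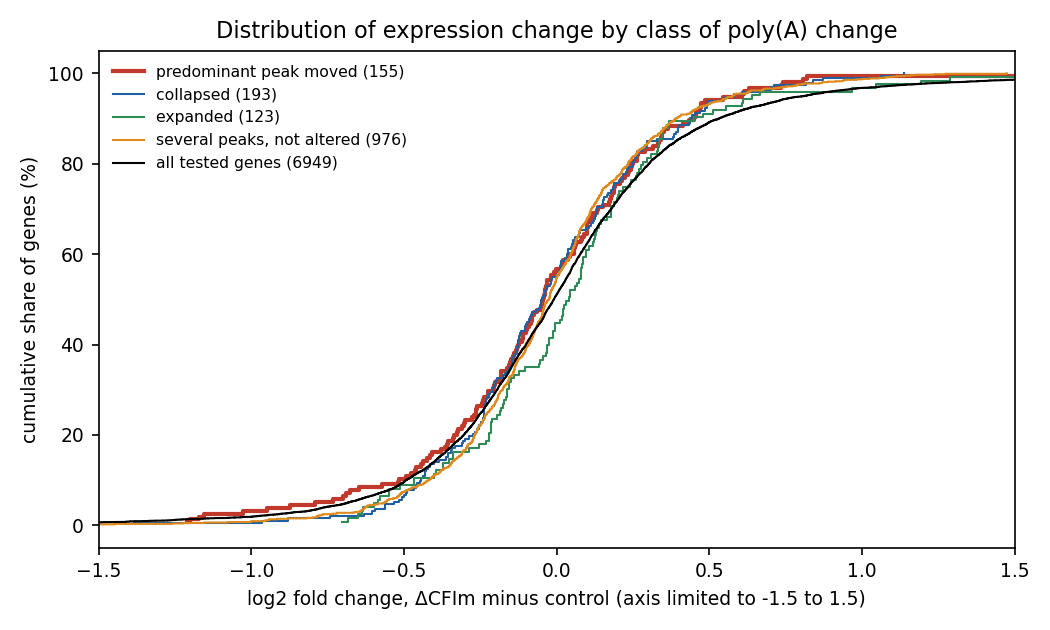
Cumulative share of genes (y axis, %) against log2 fold change (x axis, ΔCFIm minus control, limited to −1.5 to 1.5) for the 155 members, 193 collapsed, 123 expanded, 976 unaltered genes with several peaks and all 6949 tested genes. The medians lie between −0.05 and 0.04.

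Genes of the 3′ end machinery and of poly(A) binding were looked for by symbol and product name, with those the study names added. Product names were at hand only for genes with several poly(A) peaks, so other genes of the machinery may be missing. Of the 10 genes on this list 2 were called, the deleted *cpsf5* and *cpsf6*. None of the other 8 was called by limma (2 had an unadjusted p under 0.05, pub1 and NCU04288). The member pub1, at 0.61 and above both controls in both ΔCFIm libraries, was called in 5 of the 14 alternatives, which were the replicate block, median-of-ratios scaling, edgeR, DESeq2 and limma without ΔCFIm replicate 2. Its adjusted p ranged from 0.00607 to 0.400 over the 14. These 8 had a median log2 fold change of 0.06. The polyadenylation factor fip-1 (NCU07654) had 317 and 354 normalized counts against 362 and 372, and the poly(A)-binding protein NCU04799 had 1513 and 1316 against 1334 and 1360. NCU04288, which exports poly(A) RNA from the nucleus, had 385 and 375 against 502 and 535 (0.45, adjusted p = 0.134). Only pub1 of these is itself a member.

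Past the 3′ ends of the members, 10 of the genes that come next rose in ΔCFIm, and 2 fell. For each member the next annotated gene in the direction of transcription was found, at a median gap of 349 bases. The table holds 116 distinct neighbours, of which 110 were tested, and their median log2 fold change was 0.09. The strand of a neighbour was not available in the annotation used here. The 12 called (10.9%) stand against the 8.0% of all tested genes given above. By direction, 9.09% of the neighbours were called higher and 1.82% lower, against 4.62% and 3.38% of all tested genes. With a gap under 500 bases, overlaps included, 66 neighbours were tested. Of these, 4 were called higher (6.06%) and 2 lower (3.03%). No difference between these shares was tested.

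The neighbour that rose most was NCU08603, which starts 219 bases past NCU08602. It had 120 and 135 normalized counts in the controls and 1641 and 899 in ΔCFIm, a 9.96-fold ratio of means (log2 fold change 3.24, adjusted p = 5.44e-06, limma). NCU08602 itself was at 0.33 and not called (adjusted p = 0.274). NCU11309, 604 bases past NCU04669, had 3 reads in each control and 25 and 26 in ΔCFIm (2.71, adjusted p = 0.00466, limma). With so few control reads the size of its change is uncertain. NCU01266, 635 bases past the palmitoyltransferase gene NCU01267, had 9.45 and 9.67 normalized counts against 43.5 and 40.9 (2.03, adjusted p = 0.00378). The mutant values of all 3 lie above both controls, while NCU01267 was at −0.44 and NCU04669 at 0.35, neither called.

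NCU00572, 661 bases past the Hsp70 family gene NCU00573, had 39.9 and 35.8 normalized counts against 119 and 153 (log2 fold change 1.81, adjusted p = 0.000577, limma). NCU00045, 1503 bases past NCU00046, had 53.6 and 58.0 against 184 and 150 (1.56, adjusted p = 0.00076). NCU00089, 448 bases past pacC, had 70.4 and 87.0 against 208 and 240 (1.50, adjusted p = 0.000708). Again both mutant libraries were above both controls in each neighbour. The members before them stood at 0.09, −0.26 and −0.10, and none was called.

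NCU04058, 5554 bases past NCU04059, had 30.5 and 39.6 normalized counts against 130 and 75.9 (log2 fold change 1.49, limma). NCU09374, 8 bases past NCU09375, had 42.0 and 46.4 against 108 and 94.9 (1.18). *gh31-3*, of the glycosyl hydrolase family 31, 447 bases past the zinc finger gene NCU04673, had 388 and 382 against 770 and 734 (0.96). Genotypes were apart in all 3, with adjusted p of 0.00765, 0.00863 and 0.00336. The tenth, NCU02730, 2814 bases past NCU02729, had 428 and 458 against 706 and 726 (0.69, adjusted p = 0.0232), and its member was itself at 0.82, just outside the threshold. NCU02730 lost its call when either control library was left out or without a trend, and the other 9 kept theirs under every alternative that tested them.

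Of the neighbours that fell, NCU01444 overlaps the end of NCU01443 by 132 bases and had 693 and 710 normalized counts against 413 and 389 (−0.80, adjusted p = 0.0102, limma). Its call was lost when either control library was left out. The other is *ccg-4*, the pheromone precursor gene of mating type A, 242 bases past NCU02499, with 57.8 and 99.6 against 0.988 and 0. Its reads fell together with those of *matA-1*, and the part of mating type in its value cannot be told apart from that of CFIm.

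The genes on the other side of the members, next to their 5′ ends, were compared after these values had been seen. Of 124 tested, 3 were called higher (2.42%) and 3 lower (2.42%), with a median of 0.01. Downstream of collapsed genes 9 of 137 neighbours were called higher (6.57%) and 3 lower (2.19%). Downstream of expanded genes these were 1 and 2 of 84 (1.19% and 2.38%). Downstream of unaltered genes with several peaks they were 26 and 27 of 676 (3.85% and 3.99%). Of all tested genes 4.62% were called higher and 3.38% lower. The difference between these counts was not tested, and nothing is read from it.

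**Figure D5:**
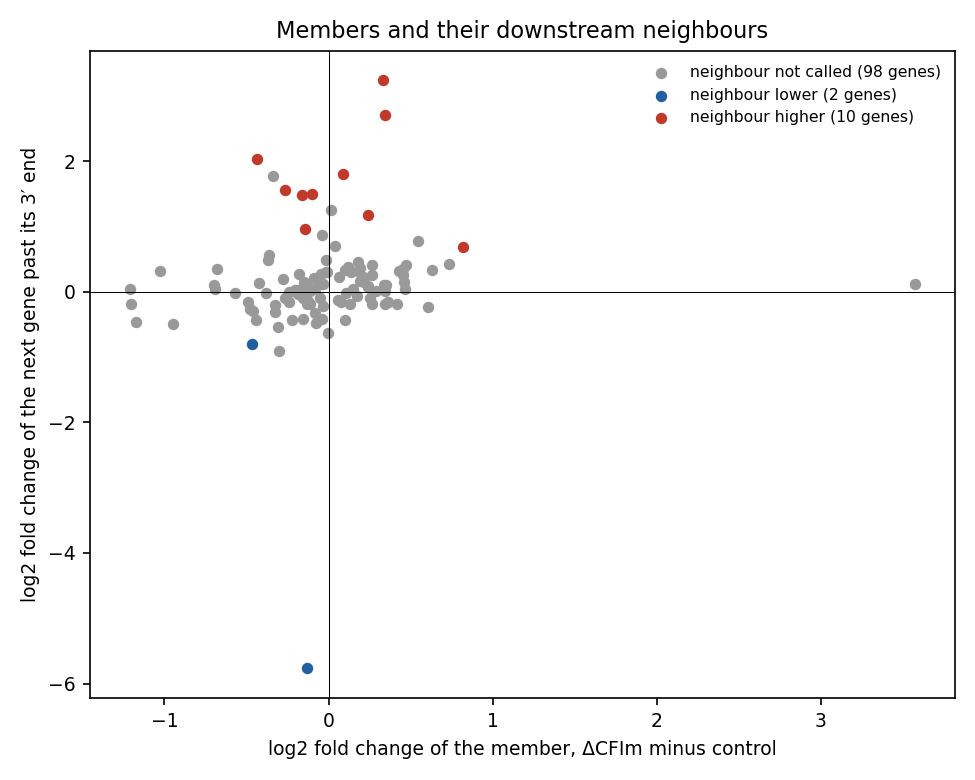
Log2 fold change (ΔCFIm minus control) of the next gene past the 3′ end (y axis) against that of the member (x axis), for members with a tested neighbour. Red points are the 10 neighbours called higher, which reach 3.24 (NCU08603), blue points are the 2 called lower, *ccg-4* at −5.77 and NCU01444 at −0.80, and the members beside them lie between −0.46 and 0.82.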

How the data were processed

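Libraries (Lexogen QuantSeq 3′ REV, 75 bp single-end) were aligned by the authors to NC12 (FungiDB 45) with STAR and counted on genes with HTSeq, after FastQC. The deposited signal is the normalized count per gene, reads times 1 factor per library, and replicates were not pooled. Reads past an annotated gene end may not be counted. Dividing by the value of 1 read gave whole reads for 100% of values (within 0.001 of a read).

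Genes averaging at least 10 normalized counts entered limma 3.58.1 (R 4.3.3), with a mean-variance trend in eBayes, as log2(normalized count + 1). With 2 libraries a genotype an exact permutation test cannot go below p = 0.333. Alternatives were pseudocounts of 0.1 and 5, no filter, a mean of 50, median-of-ratios and quantile scaling, a replicate block, no trend, edgeR 4.0.16 and DESeq2 1.42.0 on the reads, and each library left out. The tests were also run on simulated counts, whose results are not given here, and nothing is read from them.

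Members, lists and role groups were chosen with earlier results of these data known. Named were called members, those the study displays, *ckb-2*, the 5 most abundant, the extremes of each role group and called neighbours; other members were named after their values were seen. Product names and strands are from FungiDB through the study's list, and coordinates from RefSeq NC12, where all 155 matched. UTR lengths and motifs were not analysed here.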

Additional observations from a re-analysis of the deposited data

How the results depend on the processing

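The 16 members called by limma were all called by edgeR, DESeq2 and the replicate block too, and 7 of them held under all 14 alternatives (NCU00607, NCU00748, NCU01477, *gh76-7*, NCU04597, *ro-11* and NCU10015). The total of called members was 25 with the replicate block (8 higher) and 7 without a trend (1 higher and 6 lower), and the higher count was 8 with median-of-ratios scaling and 8 with edgeR. All tested genes gave 890 calls with the block and 390 without a trend. For control and mutant libraries of the same number, the deviations from their own genotype's mean correlate weakly (Pearson's r = 0.137 over 6949 genes). Nothing in the labels says that these libraries were paired.

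Leaving out each library gave 9 to 30 called members, 1 to 14 higher and 6 to 16 lower, with 10 without control replicate 1, 9 without control replicate 2 and 30 (19.4%) without ΔCFIm replicate 2. The calls over all tested genes moved with them, from 333 (4.79%) without control replicate 2 to 1132 (16.3%) without ΔCFIm replicate 2. The lone library is then assumed to vary like the other genotype. The members' median stayed between −0.08 and −0.03. Values near 0 changed sign for *ckb-1* (−0.00163 to 0.0744), NCU00413 (−0.113 to 0.0771) and NCU07879 (−0.342 to 0.0614). Downstream neighbours gave 11 to 21 calls, 10 to 17 higher and 1 to 5 lower, with 21 (17 higher) without ΔCFIm replicate 2, in the same fits. The 3′ end genes called were 2 or 3, the third being pub1. The neighbours' lower count was 1 with a mean of 50, 4 with the block and 4 with edgeR. With 2 libraries a genotype, small changes of single members were not detectable, and other causes of these shifts in count were not tested.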
